A study of Laccaria bicolor with 37 samples.

Results

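At 14 days post-inoculation (dpi), the mycelium of Laccaria bicolor S238N on and around poplar roots was compared with hyphae collected farther out in these co-cultures. The comparison took all libraries whose labels give 14 days and ectomycorrhizal root tips (EcM, 3 libraries) or extramatrical mycelium (ExM, 2 libraries), 5 of the 37 libraries of the series. The fungus had been grown against rooted cuttings of the hybrid poplar Populus tremula x alba 717-1B4 between cellophane sheets on P20, a Pachlewski agar with reduced sugar. EcM was everything fungal, with the root tissue it held, within 0.5 cm of a root, whereas ExM was the fungal material beyond 0.5 cm. Free-living mycelium (FLM, 3 libraries at 14 dpi) came from plates without a plant that were otherwise handled alike, and served as a reference. All groups were of the same strain and medium, and the labels call the libraries biological replicates. The EcM label is thus wider than root tips alone, since it takes in loose hyphae near the root, and more hyphae of 1 kind cannot be told apart from more transcript per hypha. The RNA extraction buffer was supplemented with polyethylene glycol for EcM only, so this step cannot be told apart from the group.

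Ectomycorrhizal fungi such as L. bicolor wrap short roots in a mantle of hyphae and grow between the outer root cells as a Hartig net, where the fungus hands nitrogen, phosphate and water to the plant and takes up sugar. The extramatrical mycelium explores the substrate and feeds the mantle. In L. bicolor, mycorrhiza-induced small secreted proteins (MiSSPs) are named for their rise in mycorrhizal root tips, and only a few have been characterised as effectors. Of these, MiSSP7 is known to enter poplar root cells and stabilise a repressor of jasmonate signalling. Hydrophobins coat hyphae that leave water or attach to a surface, and chitin deacetylases and glucanases remodel the fungal cell wall.

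Read counts were available for 23130 gene models, of which 15533 had enough counts to be tested. The EcM libraries totalled 22932312, 13816157 and 18046428 counts, whereas the ExM pair totalled 17935508 and 17618807. EcM replicate 2 was the smallest of the 37 libraries. Between 13896 and 14707 gene models reached 10 counts in an EcM library and 14380 and 14604 in an ExM library. No pair of libraries within EcM or ExM was alike within sampling noise. The common biological coefficient of variation was 0.142. Levels are given in each library as CPM, the count of a gene model per 1e6 counts, with library sizes scaled by the trimmed mean of M-values. Library values are always in the order of the replicate numbers. Calls required an adjusted p below 0.05 in the quasi-likelihood test of edgeR together with a log2 difference, EcM minus ExM, of 1 or more in size, which is a fold of 2. Gene models are given by their prot ID. Copies of a gene family may share reads where their sequences are alike, since the sources used here do not give whether reads with several hits were counted, so the values of single members of the families below are uncertain.

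The root-associated mycelium differed from the extramatrical mycelium in 871 gene models, 5.61% of those tested. Of these, 469 were higher in EcM (3.02%) and 402 were lower (2.59%). The rises were larger than the falls: the median log2 fold change was 1.70 over the higher gene models and -1.40 over the lower ones, and 72 rises but 6 falls reached a log2 size of 3. The higher gene models took 4.68, 5.4 and 4.74% of all counts in EcM and 1.41 and 1.53% in ExM. Their share in FLM was 1.34, 1.38 and 1.38%, next to ExM. The lower gene models took 1.01, 0.845 and 0.963% of the counts in EcM, against 2.57 and 2.69% in ExM and 2.70, 2.80 and 2.42% in FLM. The higher gene models had a median level of 19.3 CPM and a median transcript length of 1104 bases, the lower ones 5.45 CPM and 810.0 bases, and all tested gene models 15.8 CPM and 1182 bases. Annotation text was at hand for 229 of the higher (48.8%), 79 of the lower (19.7%) and 3337 of all tested gene models (21.5%), and part of that text comes from lists that the study chose on these libraries. One of these lists, of gene models late in EcM, had 75 of 106 tested members higher and 0 lower (median 1.99), which is no independent evidence, since its choice used the EcM libraries of 14 dpi.

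The EcM and ExM libraries did not overlap in 467 of the higher and 398 of the lower gene models. Among all tested gene models the libraries did not overlap in 8517 (54.8%), so separation alone was common with 3 against 2 libraries. EcM replicate 2 had the highest level of the 3 EcM libraries in 317 of the higher gene models (67.6%) and the lowest in 217 of the lower ones (54.0%). The median log2 difference of the higher gene models from the ExM mean was 1.53, 1.81 and 1.59 in EcM replicates 1, 2 and 3. Leaving out 1 library at a time gave between 396 higher gene models, without EcM replicate 2, and 475. The count of lower gene models fell to 227 without ExM replicate 2 and to 278 without ExM replicate 1, so the falls rested more on both ExM libraries than the rises did.

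**Figure D1:**
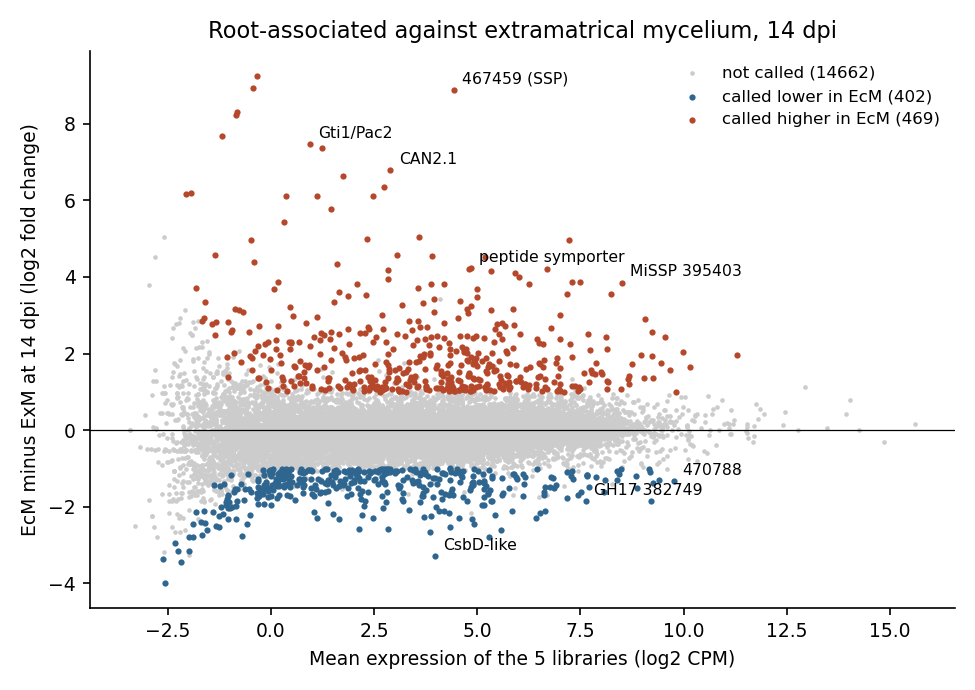
Log2 fold change of EcM against ExM at 14 dpi (y axis) by mean expression over the 5 libraries (x axis, log2 CPM), 1 point per tested gene model. The 469 higher gene models reach log2 values above 8, while only 6 of the 402 lower ones pass a log2 size of 3.

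Apart from gene models at the limit of counting in ExM, which are given further on, the largest rise named was in a candidate secreted protein. Gene model 467459, which one annotation lists as an unknown small secreted protein and another as a splicing factor PRP4, had 221, 338 and 185 CPM in EcM and 0.717 and 0.321 CPM in ExM. FLM lay at 0.605, 0.39 and 0.74 CPM, so the transcript was near the detection limit wherever no root was close. The log2 fold change was 8.89 ± 0.58 (SE, adjusted p = 3.5e-11), a fold of 474.

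Of the 29 tested gene models annotated as MiSSP, 13 were higher in EcM and 0 were lower, against 3.02% and 2.59% of all tested gene models, with a median log2 fold change of 0.87 against -0.02 over all. MiSSPs were named for a rise in mycorrhiza in earlier work, which favours this direction. Their summed level was 3334, 4668 and 4185 CPM in EcM and 1084 and 1234 CPM in ExM, and 669, 788 and 801 CPM in FLM. MiSSP 395403 had 899.6, 1196 and 1086 CPM in EcM and 78.6 and 68.2 CPM in ExM. It rose by a log2 fold change of 3.85 ± 0.78 (adjusted p = 0.00084), and even its lowest EcM library was more than 10 times above the highest ExM library. MiSSP17 (332226), which carries a cysteine-rich region, had 10.3, 15 and 11.5 CPM in EcM and 0.331 and 0.107 CPM in ExM, a log2 fold change of 5.77 ± 0.66 (adjusted p = 2e-07). MiSSP8 (388224), whose part in the contact with the plant the study calls less clear, had 6.38, 12.4 and 9.59 CPM in EcM and 0.937 and 0.696 CPM in ExM (log2 fold change 3.51 ± 0.50, adjusted p = 6.7e-06). A further MiSSP, 596686, was at 3.06, 7.58 and 4.34 CPM in EcM and at 0.221 and 0 CPM in ExM and had 0 counts in the FLM libraries. MiSSP 620230 was counted in every EcM library and in no ExM library, with 55, 47 and 47 counts against 0 and 0, which is at least 17.4-fold above the floor of 3 counts. DESeq2 gave an adjusted p of 0.26 for it, where edgeR gave 0.00054.

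MiSSP7 itself, here named MISSP7.2 (298595), was singled out after its values were seen, since it is the best known effector of this fungus. It was scarce in all libraries, at 1.79, 3.56 and 2.91 CPM in EcM, 0.11 and 0.964 CPM in ExM and 0.346, 0.57 and 0.416 CPM in FLM. The log2 fold change was 2.31 ± 0.73 (adjusted p = 0.022), and the libraries did not overlap. The call was lost without ExM replicate 1 (log2 1.51, adjusted p = 0.24) and without EcM replicate 2 (log2 2.09, adjusted p = 0.065). The effect at 14 dpi was above that at 21 dpi by a log2 of 3.68. At 21 dpi the fitted difference was thus negative, but it was not called. The difference between these days was itself not called without ExM 14 dpi replicate 1 (adjusted p = 0.21).

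**Figure D2:**
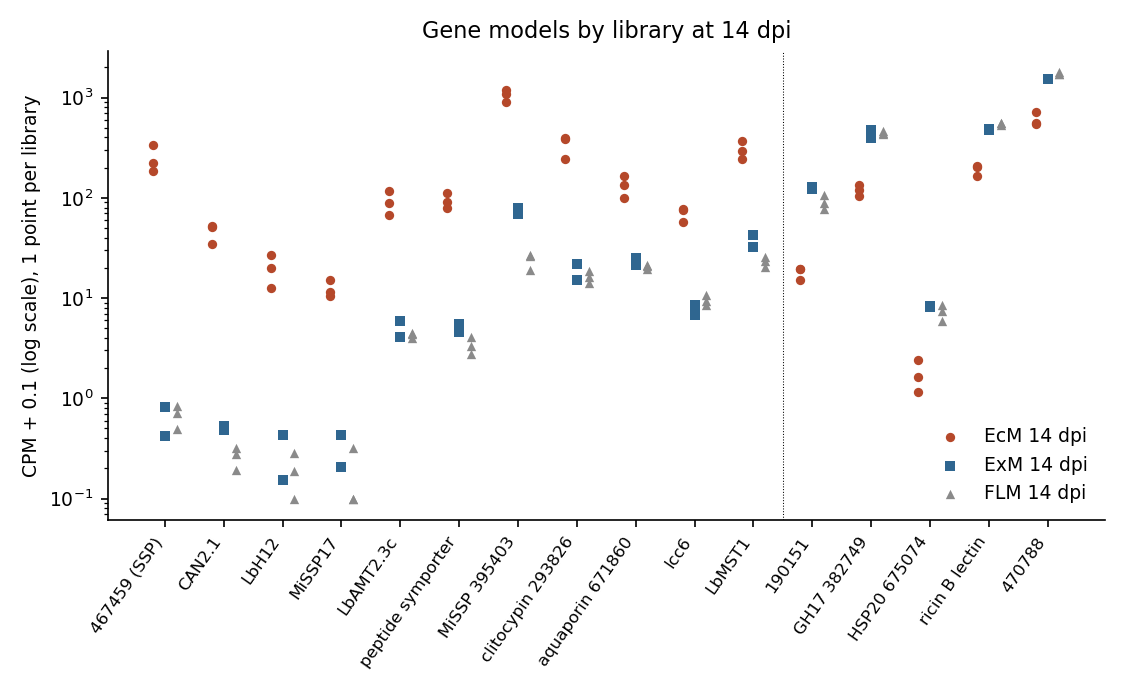
Level of 16 gene models in each library at 14 dpi (y axis, CPM + 0.1, log scale), 1 point per library, for EcM, ExM and FLM. In the 11 gene models left of the dotted line every EcM library is above every ExM and FLM library, and in the 5 right of it every EcM library is below them.

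Among the other annotated small secreted proteins, 34 of 203 tested were higher in EcM and 6 were lower, and the median over the list was 0.03, close to that of all gene models. The rises spanned log2 fold changes of 1.02 to 8.89 and the falls of -2.16 to -1.10. Gene model 477175, annotated as a small secreted protein of Laccaria, had 56.7, 51.2 and 36.6 CPM in EcM and 1.21 and 1.71 CPM in ExM (log2 fold change 5.03 ± 0.99, adjusted p = 0.00061). Gene model 663310, a small secreted protein of unknown function singled out after its values were seen, had 108, 78.5 and 80.8 CPM in EcM and 6.18 and 7.71 CPM in ExM. Its log2 fold change was 3.68 ± 0.45 (adjusted p = 1.6e-06).

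Proteins of the hyphal surface followed. Of 9 tested hydrophobins 5 were higher in EcM and 0 lower, with a median log2 fold change of 1.84 over the list. Their summed level was 87.8, 95.1 and 109 CPM in EcM, 18 and 18 CPM in ExM and 14.5, 16.3 and 14.5 CPM in FLM, so that all 3 EcM libraries stood apart from the other 5. LbH12 (241509) had 12.5, 19.8 and 26.9 CPM in EcM and 0.331 and 0.054 CPM in ExM and rose by a log2 fold change of 6.65 ± 0.65 (adjusted p = 1.1e-08). LbH13 (335058) had 22.4, 27.7 and 38.4 CPM in EcM and 0.937 and 1.5 CPM in ExM, a log2 fold change of 4.59 ± 0.39 (adjusted p = 5.1e-10). LbH9 (253198) had 211, 137 and 169 counts in EcM but 2 and 3 counts in ExM, at or under the floor, and was at least 58.9-fold higher in EcM. The 4 hydrophobins that were not called had log2 fold changes between -0.73 and 0.45.

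Enzymes that act on chitin were higher in EcM in 5 of 22 tested gene models and lower in 0. The 5 called members all come from annotation in lists chosen on these libraries. Among the 11 gene models annotated from other sources 0 were called and the median log2 fold change was -0.47. A chitinase of the list of small secreted proteins, 674406, had 23.9, 57.1 and 40.2 CPM in EcM and 0.827 and 0.161 CPM in ExM and rose by a log2 fold change of 6.34 ± 0.70 (adjusted p = 2.3e-07). Chitinases split the chitin polymer, whereas deacetylases of carbohydrate esterase family 4 (CE4) turn it into chitosan. The CE4 gene model 307596 had 46, 67.7 and 45.5 CPM in EcM and 3.2 and 4.28 CPM in ExM, and the polysaccharide deacetylase 296684 of the same family had 54.8, 58.9 and 63.3 and 8.66 and 13.4 CPM. Their log2 fold changes were 3.82 ± 0.48 (adjusted p = 1.8e-06) and 2.42 ± 0.32 (adjusted p = 5.1e-06). Outside the list of chitin enzymes, gene model 697826, annotated as a beta-1,6-N-acetylglucosaminyltransferase, had 20.3, 39.8 and 26.8 CPM in EcM and 0.386 and 0.428 CPM in ExM, a log2 fold change of 6.12 ± 0.46 (adjusted p = 4.5e-11).

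Glucanases moved both ways, with 9 of 46 tested gene models higher, 2 lower and a median of 0.01. Among the 26 annotated from sources not chosen on these libraries 4 were higher, by at most 1.70, and 1 lower (median -0.10). The 3 rises named here belong to glycoside hydrolase family 16, which holds enzymes that act on beta-glucans of the cell wall. Gene model 174636 had 41.7, 54.3 and 47.3 CPM in EcM and 8.66 and 8.57 CPM in ExM, and 620005 had 31.1, 43.8 and 35 CPM in EcM and 7.44 and 9.48 CPM in ExM. The respective log2 fold changes were 2.47 ± 0.34 (adjusted p = 8e-06) and 2.11 ± 0.21 (adjusted p = 6.7e-09). Gene model 619909 of the same family rose by 1.8 ± 0.16 (adjusted p = 1e-09). The larger of the 2 falls was in 382749 of glycoside hydrolase family 17, which had 118, 103 and 135 CPM in EcM against 469 and 397 CPM in ExM, a log2 fold change of -1.86 ± 0.34 (adjusted p = 0.00027).

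Transporters for nitrogen compounds were higher in EcM in 11 of 33 tested gene models and lower in 0, with a median of 0.34. The largest rise was in 668820, annotated as a proton-coupled oligopeptide symporter, which had 90, 111 and 78.4 CPM in EcM and 4.47 and 5.36 CPM in ExM. The log2 fold change was 4.24 ± 0.24 (adjusted p = 2.4e-13), a fold of 18.9. The ammonium transporter LbAMT2.3c (313221) had 67.5, 118 and 88.1 CPM in EcM and 5.79 and 4.02 CPM in ExM, and 4.41, 4.29 and 3.93 CPM in FLM. It rose by a log2 fold change of 4.21 ± 0.30 (adjusted p = 3.5e-11). An amino acid permease, 296817, had 73.8, 111 and 67.8 CPM in EcM and 8.0 and 7.23 CPM in ExM, a log2 fold change of 3.47 ± 0.26 (adjusted p = 8.8e-11). For these 3 transporters the extramatrical libraries differed from FLM by a log2 of 0.56, 0.22 and 0.34, none of which was called.

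The remaining 8 nitrogen transporters that rose did so by a log2 fold change of at least 1.15, and they include a further pair of ammonium transporters. LbAMT2.2 (331747) was low, at 1.79, 5.0 and 3.14 CPM in EcM and 0.607 and 0.214 CPM in ExM, and rose by 2.97 ± 0.56 (adjusted p = 0.00024). LbAMT1.2 (190906) and the nitrate transporter LbNrt (254042) were singled out after their values were seen. LbAMT1.2 had 90, 107 and 100.3 CPM in EcM and 30.4 and 30.3 CPM in ExM, a log2 fold change of 1.71 ± 0.21 (adjusted p = 1.3e-06). LbNrt had 32.5, 24.1 and 27.3 CPM in EcM and 13.7 and 11.6 CPM in ExM, a log2 fold change of 1.15 ± 0.27 (adjusted p = 0.0029), and its call was lost without ExM replicate 2 (adjusted p = 0.053). Of 8 enzymes of nitrogen assimilation 2 rose (median 0.41). Both were annotated only from lists chosen on these libraries, and among the 5 from other sources 0 were called (median -0.13). A gene model annotated with nitrite reductase activity, 291348, had 31.4, 28.9 and 25.2 CPM in EcM and 12.1 and 10.4 CPM in ExM (log2 fold change 1.34 ± 0.26, adjusted p = 0.00041). One annotated with glutamate dehydrogenase activity, 309733, had 37.7, 60.1 and 44.2 and 19.7 and 17.8 CPM (log2 fold change 1.33 ± 0.15, adjusted p = 1.7e-07).

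A single carbonic anhydrase stood out. CAN2.1 (299838), an enzyme that interconverts carbon dioxide and bicarbonate, had 34.2, 51.2 and 52.2 CPM in EcM and 0.386 and 0.428 CPM in ExM, with 0.216, 0.18 and 0.093 CPM in FLM. Its log2 fold change was 6.79 ± 0.59 (adjusted p = 2.2e-09), a fold of 111. The other 8 tested carbonic anhydrases were not called and lay between -1.10 and 0.12 on the log2 scale.

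Sugar transporters were higher in EcM in 4 of 13 tested gene models and lower in 0 (median 0.39). LbMST1 (305352), a monosaccharide transporter, had 243, 367 and 294 CPM in EcM and 42.5 and 32 CPM in ExM (log2 fold change 3.02 ± 0.34, adjusted p = 4.9e-07). Gene model 680250, annotated as a sugar or inositol transporter, had 272, 311 and 266 CPM in EcM and 62.3 and 56.8 CPM in ExM (log2 fold change 2.25 ± 0.26, adjusted p = 5.8e-07). A sugar transporter of the major facilitator superfamily, 460233, rose less, by 1.75 ± 0.15 (adjusted p = 8e-10), from 14.9 and 15 CPM in ExM to 36.5, 66.7 and 48.2 CPM in EcM. The 9 sugar transporters that were not called had log2 fold changes between -0.53 and 0.49.

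The wider class of transporters of the major facilitator superfamily (MFS), which carry many kinds of small molecules, and of ATP-binding cassette (ABC) transporters held 24 higher and 0 lower gene models among 93 tested, with a median of 0.49. The rises spanned 1.01 to 4.15 on the log2 scale, and 13 of the 24 were called the same way at 21 dpi. MFS transporter 573896 had 93.8, 172 and 122 CPM in EcM and 7.55 and 7.02 CPM in ExM, a log2 fold change of 4.15 ± 0.26 (adjusted p = 1e-12). MFS transporter 704867, one of the 4 called rises of highest CPM, which is not scaled by length, had 1596, 2015 and 1799 CPM in EcM and 540 and 615 CPM in ExM (log2 fold change 1.64 ± 0.39, adjusted p = 0.0031).

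Of 6 aquaporins, channels for water and small solutes, 2 rose and 1 fell. Gene model 671860 had 100, 165 and 133 CPM in EcM and 21.4 and 25.2 CPM in ExM (log2 fold change 2.51 ± 0.32, adjusted p = 2.5e-06). Gene model 482072 had 9.17, 24.7 and 9.93 CPM in EcM and 5.62 and 3.64 CPM in ExM (log2 fold change 1.63 ± 0.44, adjusted p = 0.0077), and its call was lost under several alternatives. Without EcM replicate 2 the log2 fold change was 1.04 (adjusted p = 0.072) and without ExM replicate 2 it was 1.36 (adjusted p = 0.12). It was also not called in fits of only the days compared with FLM (adjusted p = 0.061) or only the groups compared, without (0.18) or with (0.36) a replicate block. Aquaporin 456764 went the other way, with 0.568, 0.606 and 0.457 CPM in EcM and 1.43 and 1.55 CPM in ExM (log2 fold change -1.45 ± 0.36, adjusted p = 0.0035).

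Metal transporters and ferric reductases had 5 higher and 0 lower among 23 tested gene models (median 0.18). Among the 19 annotated from sources not chosen on these libraries 3 were higher, by at most 3.70 (median 0.14). A ferric reductase-like protein, 620058, of a class that reduces iron before uptake, had 16.3, 26.1 and 15.9 CPM in EcM and 0.772 and 0.428 CPM in ExM (log2 fold change 5.0 ± 0.54, adjusted p = 8.2e-08). The cation diffusion facilitator CDF-B (307944) had 21.4, 53.1 and 28.3 CPM in EcM and 2.92 and 2.3 CPM in ExM (log2 fold change 3.7 ± 0.33, adjusted p = 1.6e-09). The zinc and iron permease ZIP-A (180140) had 12.5, 28.4 and 21.1 CPM in EcM and 3.8 and 4.98 CPM in ExM, a log2 fold change of 2.22 ± 0.27 (adjusted p = 5.4e-07). In all 3 of these, EcM replicate 2 was the highest library.

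Oxidative enzymes rose in part. Laccases, multicopper oxidases that act on phenols, were higher in EcM in 4 of 10 tested gene models and lower in 0 (median 0.65). The laccase lcc6 (399748) had 78, 76.1 and 57.8 CPM in EcM and 6.62 and 8.41 CPM in ExM (log2 fold change 3.23 ± 0.35, adjusted p = 2e-07). The laccase lcc3 (399745) had 76.2, 99.4 and 108 CPM in EcM and 18.5 and 18 CPM in ExM, a log2 fold change of 2.38 ± 0.20 (adjusted p = 8.7e-10). Smaller rises were called for lcc8 (399749, 1.2, 0.99 without EcM replicate 2) and Lcc9 (399751, 1.2). Cytochrome P450 monooxygenases had 9 higher and 0 lower among 26 (median 0.71), among them 386551 with 47.3, 85.2 and 52.7 CPM in EcM and 6.23 and 5.57 CPM in ExM (log2 fold change 3.38 ± 0.29, adjusted p = 8.1e-10). Among the 21 annotated from sources not chosen on these libraries, 5 were higher, by at most 2.71, and 0 lower (median 0.46). Of 29 peroxidases and oxidases of the auxiliary activity families AA3 and AA5, 8 were higher and 1 lower (median 0.12). Among the 19 of these from sources not chosen on these libraries, 4 were higher and 1 lower (median 0.12). The AA3 gene model 448758 had 286, 263 and 203 CPM in EcM and 49.6 and 47.1 CPM in ExM, a log2 fold change of 2.37 ± 0.40 (adjusted p = 0.00011). Glutathione transferases and antioxidant proteins had 6 higher and 1 lower among 40 (median 0.20). A glutathione S-transferase, 674829, also one of the 4 rises of highest CPM, had 1546, 2099 and 1765 CPM in EcM and 461 and 417 CPM in ExM (log2 fold change 2.04 ± 0.40, adjusted p = 0.00055).

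Inhibitors of proteases moved in both directions. Of 12 tested clitocypins and other inhibitors 4 rose and 1 fell, with a median of 0.66. Clitocypins are inhibitors of cysteine proteases found in mushrooms. Clitocypin 293826 had 242, 387 and 393 CPM in EcM and 14.9 and 21.7 CPM in ExM, a log2 fold change of 4.21 ± 0.79 (adjusted p = 0.0004). Clitocypin 326016 had 291, 431 and 479.9 CPM in EcM and 23.5 and 43.9 CPM in ExM, a log2 fold change of 3.57 ± 0.71 (adjusted p = 0.00075). Clitocypin 326015 was lower in EcM, at 38.9, 25.7 and 70.8 CPM against 149 and 149 CPM in ExM, a log2 fold change of -1.72 ± 0.59 (adjusted p = 0.035). This call was lost without EcM replicate 1 (adjusted p = 0.098), EcM replicate 2 (0.13), ExM replicate 1 (0.12) or ExM replicate 2 (0.13), and in a fit of only the groups compared (0.10). Clitocypin 318727 had 11.9, 9.7 and 16.1 CPM in EcM and 7.17 and 4.45 CPM in ExM and was not called (log2 fold change 1.12 ± 0.55, adjusted p = 0.14), but it was in fits of only the days compared with FLM (adjusted p = 0.0043) or only the groups compared (0.013). The protease inhibitor Cospin1 (295829) had 1269, 1397 and 1889.5 CPM in EcM and 178 and 384 CPM in ExM. Its log2 fold change of 2.44 ± 0.77 (adjusted p = 0.024) was not called without ExM replicate 1 (2.01, adjusted p = 0.20), without ExM replicate 2 (3.11, adjusted p = 0.066) or without EcM replicate 3 (2.25, adjusted p = 0.055).

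Of 99 tested peptidases 6 were higher and 1 lower, with a median of 0.06. Over all tested gene models 3.02% were higher and 2.59% lower. Among the 59 annotated from sources not chosen on these libraries 2 rose, by at most 1.20, and 1 fell. The larger rises of the list are annotated only from lists chosen on these libraries. A cysteine-type endopeptidase, 635298, had 231, 254 and 181 CPM in EcM and 17.1 and 14.3 CPM in ExM, a log2 fold change of 3.82 ± 0.46 (adjusted p = 1.5e-06). An astacin-like metallopeptidase, 335185, had 8.26, 12.7 and 9.19 CPM in EcM and 0.221 and 0.75 CPM in ExM (log2 fold change 4.34 ± 0.61, adjusted p = 6e-06). Lectins and haemolysins had 1 higher and 2 lower among 13. The rise is annotated only from lists chosen on these libraries, and among the 12 from other sources 0 were higher and 2 lower. A fungal fruit body lectin, 185716, had 66.1, 112 and 103 CPM in EcM and 22.5 and 22.2 CPM in ExM (log2 fold change 2.06 ± 0.31, adjusted p = 2.3e-05). A ricin B lectin, 309465, was lower, at 164, 208 and 204 CPM in EcM and 469 and 484 CPM in ExM (log2 fold change -1.31 ± 0.15, adjusted p = 1.3e-07).

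**Figure D3:**
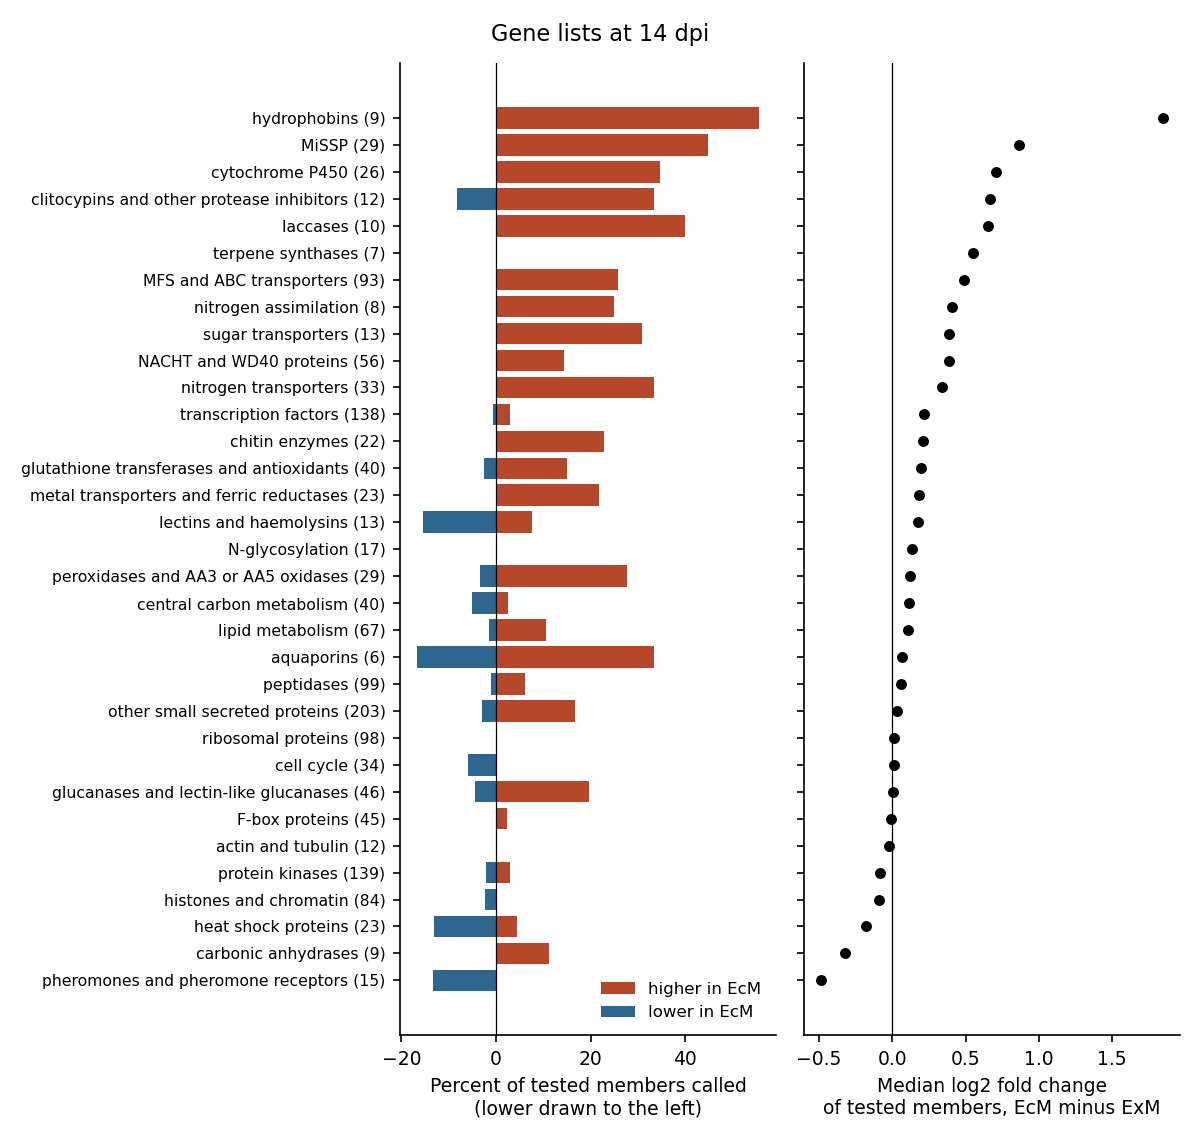
Share of the tested members of each gene list that were called higher or lower in EcM (left, percent, lower drawn to the left) and the median log2 fold change of the list (right), with the number of tested members in brackets. Hydrophobins (5 of 9 higher, median 1.84) and MiSSPs (13 of 29 higher, median 0.87) head the order, and ribosomal proteins (0 of 98 called) stand at 0.01. Members annotated only from lists chosen on these libraries are included, and MiSSPs were named for a rise in mycorrhiza.

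Of 138 transcription factors 4 were higher and 1 lower (median 0.22), and of 139 protein kinases 4 were higher and 3 lower (median -0.08). These counts were no larger than the share of all tested gene models, 3.02% higher and 2.59% lower, would give. Gene model 603166, of the Gti1/Pac2 family whose members regulate morphology in other fungi, was outside that list and was the clearest case. It had 186, 162 and 202 counts in EcM and 1 count in each ExM library, and was at least 64.3-fold higher in EcM. A bZIP transcription factor, 336090, had 9.22, 12.4 and 12.6 CPM in EcM and 1.76 and 2.41 CPM in ExM (log2 fold change 2.44 ± 0.38, adjusted p = 2.4e-05). A zinc cluster protein, 588400, had 57.7, 70.6 and 60.7 CPM in EcM and 19.2 and 18.4 CPM in ExM (log2 fold change 1.74 ± 0.13, adjusted p = 3.5e-11). A forkhead-associated protein, 670212, had 18.2, 30.9 and 27.9 CPM in EcM and 6.12 and 6.53 CPM in ExM (log2 fold change 2.01 ± 0.31, adjusted p = 2.2e-05). Proteins with NACHT or WD40 domains, which in fungi include receptors of non-self recognition, had 8 higher and 0 lower among 56 (median 0.39).

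The falls were smaller and less often annotated. Of the 6 largest falls named by rule, 5 had no annotation text. Gene model 190151 had 19.2, 15.2 and 19.6 CPM in EcM and 127 and 123 CPM in ExM, a log2 fold change of -2.8 ± 0.47 (adjusted p = 0.00013), and 457311 had 8.91, 5.08 and 6.73 CPM in EcM and 44.6 and 45 CPM in ExM (log2 fold change -2.67 ± 0.65, adjusted p = 0.0042). In both, the FLM libraries were closer to ExM, at 105, 89.2 and 76.8 and at 32, 28.9 and 19.3 CPM. The largest fall named by this rule, which leaves out scarce gene models, was in the CsbD-like gene model 190777 (-3.29 ± 0.96, adjusted p = 0.014). It had 6.12, 7.35 and 6.11 CPM in EcM but 89.9 and 36.7 CPM in ExM, and without ExM replicate 1 it was not called (log2 -2.48, adjusted p = 0.15).

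Among 23 tested heat shock proteins 3 fell and 1 rose (median -0.18), against 2.59% lower and 3.02% higher of all tested. The 3 that fell are each annotated as HSP20-like chaperones, which hold unfolded proteins. Gene model 675074 had 1.53, 1.06 and 2.28 CPM in EcM and 8.11 and 8.3 CPM in ExM (log2 fold change -2.31 ± 0.50, adjusted p = 0.0015). Gene model 474714 had 20.2, 21.6 and 18.8 CPM in EcM and 88 and 69.5 CPM in ExM (log2 fold change -1.96 ± 0.54, adjusted p = 0.0098), and was not called without ExM replicate 1 (adjusted p = 0.077). Gene model 706828 had 6.38, 4.55 and 6.33 CPM in EcM and 17.5 and 18.7 CPM in ExM (log2 fold change -1.64 ± 0.48, adjusted p = 0.014), and was not called without ExM replicate 2 (adjusted p = 0.086), ExM replicate 1 (0.061) or EcM replicate 2 (0.055). The gene model that rose, 627568, is annotated with heat shock protein binding (log2 fold change 1.07 ± 0.25, adjusted p = 0.0022). Its log2 fold change fell below 1 with library totals (0.98) and without EcM replicate 2 (0.89). Other annotated falls were a fatty acid desaturase with a cytochrome b5 domain, 708196, at 2.71, 1.89 and 2.8 CPM in EcM and 10.1 and 13.2 CPM in ExM (log2 fold change -2.21 ± 0.43, adjusted p = 0.00043), and a CCCH-type zinc finger protein, 679946, at 25.7, 17.2 and 20.1 CPM in EcM and 80.2 and 83.3 CPM in ExM (log2 fold change -1.95 ± 0.41, adjusted p = 0.0013).

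Of the 4 falls of highest CPM, 2 are given here. Gene model 470788 had 545, 555 and 719 CPM in EcM and 1526 and 1531 CPM in ExM (log2 fold change -1.33 ± 0.18, adjusted p = 2.3e-06). Gene model 704080 had 451, 361 and 455 CPM in EcM and 1042 and 1151 CPM in ExM (log2 fold change -1.38 ± 0.18, adjusted p = 1.7e-06). Neither carries annotation text. Among the rises of highest CPM, 469385, also without annotation, had 4156, 5325 and 3633 CPM in EcM and 1102 and 1129.5 CPM in ExM, a log2 fold change of 1.97 ± 0.16 (adjusted p = 1.1e-10).

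Several lists showed little or no change. Of 98 ribosomal proteins 0 were called, with log2 fold changes from -0.83 to 0.59, and of 12 actins and tubulins 0 were called. Histones and chromatin proteins had 2 falls among 84, the linker histone 306200 (-1.04) and 328393 (-1.73), and 0 rises. The first of them missed the fold of 2 without EcM replicate 2 (-0.99), EcM replicate 3 (-1.0) or ExM replicate 2 (-0.97, adjusted p = 0.075). The genes of these 3 classes are conserved between fungi and plants, and poplar reads matching such a transcript would add to its count, which was not tested. Over the 3 classes together, 0 of 194 tested gene models were higher in EcM, and the median was -0.03. A small addition would not reach a fold of 2, so these values cannot show whether poplar reads were counted. Of 34 cell cycle gene models 2 were lower and 0 higher, of 15 pheromones and pheromone receptors 2 were lower and 0 higher (median -0.49), and of 17 gene models of N-glycosylation 0 were called. Of 40 gene models of central carbon metabolism, which runs from glycolysis to the citrate cycle, 1 was higher and 2 were lower. The shares over all tested gene models were 3.02% higher and 2.59% lower.

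A further view took the gene models that were at or under 3 counts, the floor, in both ExM libraries. There were 47 such gene models with more than 3 counts in every EcM library, and 15 of them had at least 10 counts in every EcM library. The methyltransferase 543626 had 229, 229 and 290 counts in EcM and 3 and 0 counts in ExM, which is at least 88.5-fold higher. In the opposite direction 55 gene models were at the floor in every EcM library and above it in both ExM libraries, but only 1 of them reached 10 counts in both.

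Among these 15 were 453935 and 453936, annotated with the domain DUF247, which is known mainly from plant proteins, and 453939, without annotation. Gene model 453935 had 44, 84 and 46 counts in EcM and 0 counts in the ExM and FLM libraries of 14 dpi, at least 22-fold above the floor (adjusted p = 0.00014 by edgeR, 0.088 by DESeq2). Gene model 453936 had 29, 37 and 29 counts in EcM and 453939 had 21, 26 and 14, again with 0 counts in ExM and FLM. At 7 dpi the mean level of 453935 was 0.263 CPM in EcM and 0 CPM in ExM, and at 21 dpi 4.08 CPM in EcM and 0 CPM in ExM. On these days 453935 was thus counted only in the libraries that hold root tissue, and whether its counts come from poplar reads was not tested. MiSSP 620230 and the unannotated 334759, with 27, 28 and 36 counts in EcM, also had 0 counts in ExM and FLM at 14 dpi, but their mean levels in EcM at 21 dpi were only 0.173 and 0.112 CPM.

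More gene models differed between EcM and ExM at 14 and 21 dpi than at 3 or 7 dpi. At 3 dpi 6 gene models were called (0.0386% of those tested) and at 7 dpi 47 (0.303%), against 871 at 14 dpi and 682 (4.39%) at 21 dpi. These days are other libraries, so they measure the gene models of 14 dpi afresh. Of the 469 gene models higher at 14 dpi, 42 were called higher at 7 dpi, where 45 (0.290%) were called higher in all and 2 (0.0129%) lower. At 21 dpi 156 of the 469 (33.3%) were called higher, against 224 (1.44%) of all tested gene models. Over the days 3, 7, 14 and 21 their median log2 fold change was 0.16, 0.35, 1.70 and 0.64, and 391 (83.4%) had the same sign at 21 dpi. Of the 402 gene models lower at 14 dpi, 0 were called lower at 3 or 7 dpi and 104 (25.9%) at 21 dpi, where 458 (2.95%) were called lower in all. Their medians were 0.01, -0.13, -1.40 and -0.74 on these days, and 372 (92.5%) had the same sign at 21 dpi. The count at 7 dpi depended on single libraries of that day: 22 of the 14 dpi gene models were called the same way without ExM 7 dpi replicate 3, and 27 without ExM 7 dpi replicate 2.

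Whether the effect differed between days was tested as an interaction. Between 14 and 7 dpi the effect differed in 337 gene models (2.17%). Among them were 210 of the 469 higher gene models and 84 of the 402 lower ones, in all of which the effect was larger at 14 dpi. Between 14 and 21 dpi it differed in 261 gene models (1.68%), with a positive difference in 203 (1.31%) and a negative one in 58 (0.373%), among them 130 of the higher and 19 of the lower ones, again all with the larger effect at 14 dpi. The gene models were chosen for a large effect at 14 dpi, which favours this direction. The count for 14 against 21 dpi fell to 109 without ExM 14 dpi replicate 1, and that for 14 against 7 dpi to 184 without the same library, to 197 without ExM 14 dpi replicate 2 and to 218 without EcM 14 dpi replicate 2.

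Some of the gene models higher at 14 dpi were called again at 21 dpi. LbH12 (241509) had log2 fold changes of 0.94, 2.45, 6.65 and 6.11 at 3, 7, 14 and 21 dpi. The chitinase 674406 had 3.99, 3.19, 6.34 and 6.9, and MiSSP17 (332226) had 2.59, 4.76, 5.77 and 5.15. For these 3 gene models, and for the amino acid permease 296817 (3.47 at 14 dpi, 3.69 at 21 dpi), the difference between 14 and 21 dpi was not called, with adjusted p of 0.85, 0.86, 0.82 and 0.73. Against the 156 of 469 (33.3%) over all gene models higher at 14 dpi, 4 of the 5 called hydrophobins were called higher again at 21 dpi, 5 of the 5 chitin enzymes and 7 of the 11 nitrogen transporters. Among the 13 MiSSPs it was 4, close to that share. Recurrence was not particular to these lists, with 5 of the 6 glutathione transferases and antioxidants and 3 of the 4 laccases. In contrast, 0 of the 4 protease inhibitors, 0 of the 8 NACHT or WD40 proteins and 0 of the 4 protein kinases were called higher again. The 5 chitin enzymes were annotated only from lists chosen on these libraries, so their count is no independent evidence about the class. Of the 75 higher members of the chosen list late in EcM, 44 were called higher again at 21 dpi.

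Another part was large at 14 dpi and small or opposite at 21 dpi. MiSSP 395403 had a log2 fold change of 3.85 at 14 dpi and 0.44 at 21 dpi, where its mean level was 758 CPM in EcM and 559.8 CPM in ExM. The interaction was 3.42 ± 0.93 (adjusted p = 0.023), and it was not called without ExM 14 dpi replicate 1 (adjusted p = 0.13) or ExM 14 dpi replicate 2 (0.090). The clitocypins 293826 and 326016 went from 4.21 to -0.11 and from 3.57 to 0.12, with interactions of 4.33 ± 0.94 (adjusted p = 0.0055) and 3.45 ± 0.86 (adjusted p = 0.015), which were not called without ExM 14 dpi replicate 1 (adjusted p = 0.081 and 0.15). The cysteine endopeptidase 635298 went from 3.82 to 0.25 (interaction 3.57 ± 0.55, adjusted p = 0.00027), lcc6 (399748) from 3.23 to 0.62 (interaction 2.62 ± 0.44, adjusted p = 0.00052) and LbMST1 (305352) from 3.02 to 0.50 (interaction 2.51 ± 0.42, adjusted p = 0.00054). The bZIP factor 336090 went from 2.44 to -0.49 (interaction 2.93 ± 0.48, adjusted p = 0.00029). CAN2.1 (299838) kept a call at both days, but its effect went from 6.79 to 3.03 (interaction 3.76 ± 0.74, adjusted p = 0.0021).

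**Figure D4:**
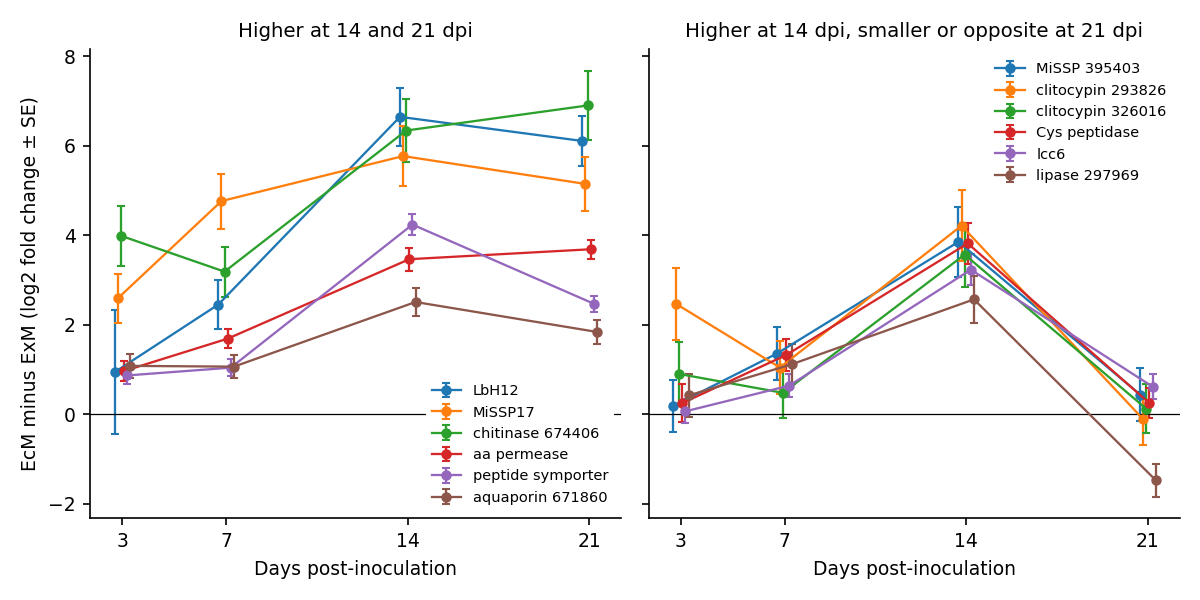
Log2 fold change of EcM against ExM (y axis, ± SE of the fit) at 3, 7, 14 and 21 dpi (x axis) for 6 gene models that were higher at 14 and 21 dpi (left) and 6 whose effect was smaller or opposite at 21 dpi (right). MiSSP 395403 goes from 3.85 at 14 dpi to 0.44 at 21 dpi, while the chitinase 674406 goes from 6.34 to 6.90.

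In 4 gene models the call turned from higher at 14 dpi to lower at 21 dpi. The secreted protein 663310 had mean levels of 89.1 CPM in EcM and 6.94 CPM in ExM at 14 dpi, but 42.7 and 94.9 CPM at 21 dpi, so that both mycelia moved, ExM upwards and EcM downwards. Its interaction was 4.84 ± 0.56 (adjusted p = 1.3e-05). The lipase 297969 had 5.73 CPM in EcM and 0.946 CPM in ExM at 14 dpi and 5.97 and 16.5 CPM at 21 dpi, where the level in EcM was about the same and that in ExM was higher. Its log2 fold change went from 2.57 to -1.48 (interaction 4.04 ± 0.64, adjusted p = 0.00025). The other two, 488020 and 697885, went from 1.29 to -1.28 and from 1.9 to -1.1, with interactions of 2.57 and 3.0. The call of 488020 at 14 dpi was lost without EcM replicate 2 (adjusted p = 0.097), EcM replicate 3 (0.079), ExM replicate 1 (0.23) or ExM replicate 2 (0.071), and its interaction without ExM replicate 1 (0.078). All but the lipase were singled out after their values were seen. None of the lower gene models of 14 dpi was called higher at 21 dpi.

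**Figure D5:**
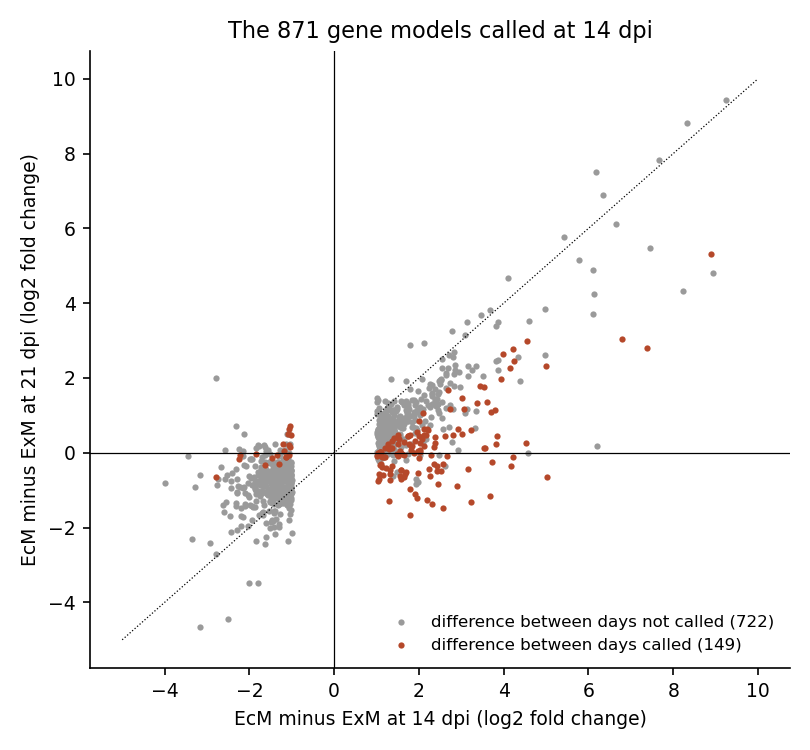
Log2 fold change of EcM against ExM at 21 dpi (y axis) by that at 14 dpi (x axis) for the 871 gene models called at 14 dpi, 1 point each. The 149 gene models whose effect differed between the days are drawn in red, away from the dotted line of equal effects, and 391 of the 469 higher and 372 of the 402 lower gene models have the same sign on both days.

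Against the plant-free mycelium, more gene models were called in EcM, with 3 libraries, than in ExM, with 2. EcM differed from FLM at 14 dpi in 1057 gene models (6.80%), 626 higher (4.03%) and 431 lower (2.77%), and ExM differed from FLM in 7 (0.0451%), 7 higher and 0 lower. At an unadjusted p under 0.05, ExM and FLM differed in 943 gene models. These comparisons share libraries with the main one, so their values are given side by side. The median log2 difference from FLM over the 469 higher gene models was 1.72 for EcM and 0.07 for ExM, and over the 402 lower ones -1.19 and 0.20. Of the 7 gene models higher in ExM than in FLM, 3 are given here, chosen after their values were seen. They include a clitocypin, 382297, with means of 72.7 CPM in ExM, 16.0 CPM in FLM and 58.4 CPM in EcM, and 684961, a glucose-methanol-choline oxidoreductase, with 55.9, 17.7 and 58.6 CPM. The log2 differences between ExM and FLM were 2.19 and 1.66 (adjusted p = 0.0011 and 0.00024), and those between EcM and ExM were -0.32 and 0.07 and were not called. A proteinase inhibitor of family I9, 476306, had means of 9.21 CPM in FLM, 39.1 CPM in ExM and 122 CPM in EcM, and was called at both steps.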

How the data were processed

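Each library's deposited table gives read counts and RPKM per gene model. Per the study's methods, the authors trimmed reads, mapped them in CLC Genomics Workbench against JGI's L. bicolor v2 transcripts, and tested with DESeq2. Whether the deposited counts are of unique or all hits is not given in the sources used here. RPKM values deposited by the authors were read, and no test used them.

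Gene models with a minimum count of 10, and a total of 15, were kept (filterByExpr). edgeR's quasi-likelihood test (edgeR 4.0.16, R 4.3.3) was fitted to all 37 libraries with 1 coefficient for each of the 13 groups, scaled by the trimmed mean of M-values, with Benjamini-Hochberg adjustment over all 15533 gene models. Interactions were contrasts of the same fit. An exact permutation test of 3 against 2 libraries cannot go below 0.1 and was not used. Alternatives were DESeq2 1.42.0, other scalings, no filter, smaller fits, a replicate block and leaving out each library. On simulated counts, 93 of 100 gene models changed by a log2 of 1.5 were recovered, and 100 of 100 at a log2 of 3, with 0 false calls. Only well counted gene models were changed, and the simulated spread was the one edgeR had estimated. The simulation thus does not cover scarce gene models or shifts of whole libraries.

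The comparison, gene lists and named gene models were chosen with earlier results of these data known. Gene models were named by rule: among called ones without overlap whose log2 CPM averaged 1 or more, the 6 largest rises and falls, the 6 largest annotated ones beyond these and the 4 of highest CPM in each direction, the 8 the study names for EcM, and up to 4 called members per list, some of which are left out. Exceptions are marked. Annotation text came from the study's supplementary tables, part of which were chosen on these libraries.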

Additional observations from a re-analysis of the deposited data

Results flagged for a closer look

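The difference between EcM and ExM was not the same on all days, and each value here is a log2 difference between the effects of 2 days, tested as an interaction. The effect differed between 14 and 21 dpi in 261 gene models and between 14 and 7 dpi in 337. Against 21 dpi, the difference was positive for the secreted proteins 477175 (5.68), 663310 (4.84), MISSP7.2 (298595, 3.68), 467459 (3.58) and MiSSP 395403 (3.42). The same held for the methyltransferase 543626 (4.57), for the clitocypins 293826 (4.33) and 326016 (3.45) and for the endopeptidase 635298 (3.57). Clitocypin 318727 was not called at 14 dpi, with a log2 fold change of 1.12 against -1.43 at 21 dpi, and the difference was 2.55. The lipases 297969 and 182815 had 4.04 and 2.24, 488020 and 697885 had 2.57 and 3.0, and CAN2.1 (299838) had 3.76.

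Among transporters the difference from 21 dpi was 3.29 for the nucleotide-sugar transporter-related 695067, 2.69 for the ferric reductase 620058, 2.62 for CDF-B (307944), 2.51 for LbMST1 (305352), 1.77 for the peptide symporter 668820 and 1.43 for LbAMT2.3c (313221). It was 2.62 for lcc6 (399748), 2.93 for the bZIP factor 336090 and 1.93 for the forkhead-associated protein 670212. The desaturase 708196 was the 1 fall among them, at -2.15.

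Against 7 dpi, the difference was 7.79 for 467459, 4.69 for CAN2.1 (299838), 3.2 for 668820, 2.89 for the MFS transporter 573896 and 2.1 for LbAMT2.3c (313221). The fall of 190151 was larger at 14 dpi by -2.67, a call that was lost without ExM 14 dpi replicate 1 (adjusted p = 0.054).

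Of the 31 differences between days tested for single gene models, 16 were called under every alternative. In a fit of only the groups compared, the difference from 21 dpi was not called for 467459 (adjusted p = 0.19), 318727 (0.12), 620058 (0.11) or 695067 (0.057). A replicate block in that fit lost it for 467459 (0.24), 318727 (0.14), 620058 (0.13), 313221 (0.087), 298595 (0.056) and 307944 (0.051). A fit of only the days compared with FLM lost it for 318727 (0.13), 467459 (0.074) and 620058 (0.052). Without ExM 14 dpi replicate 1, the difference from 21 dpi was not called for 298595 (adjusted p = 0.21), 543626 (0.093), 708196 (0.088), 318727 (0.085), 395403 (0.13), 326016 (0.15), 293826 (0.081), 488020 (0.078), 620058 (0.072) or 477175 (0.065). Without ExM 14 dpi replicate 2 it was not called for 543626 (0.14), 318727 (0.11), 708196 (0.099), 313221 (0.097), 620058 (0.095) or 395403 (0.090), and without ExM 21 dpi replicate 3 for 467459 (0.058), 543626 (0.056), 298595 (0.067) or 708196 (0.085).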

How the results depend on the processing

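The only named gene model whose direction turned was 684961, not called, which moved from 0.07 to -0.020 with library totals and lay between -0.072 and 0.18 with 1 library left out. Of 102 called gene models followed singly, 73 were called under every alternative, and 80 with any 1 library of 14 dpi left out. With a replicate block in a fit of only the groups compared, 9 lost their call. Among them were the chitinase 674406 (adjusted p = 0.11), LbAMT2.3c (313221, 0.067), CDF-B (307944, 0.061) and aquaporin 456764 (0.088). The count of called gene models was 871, between 850 and 942 under other scalings, tools, filters and fits without a replicate block, and between 633 and 867 with 1 library left out. The count higher in EcM ranged from 396 to 475 and that lower in EcM from 227 to 392 with 1 library left out. Without the scaling by the trimmed mean of M-values, 414 were higher and 507 lower (45% higher, 53.8% otherwise), and the median of all gene models moved from -0.02 to -0.11. The count called at 14 dpi and the same way at 21 dpi was 260 (188 to 270 with 1 library left out), and that for 7 dpi was 42 (22 to 43). The interaction of 14 and 7 dpi was called in 337 gene models, in 577 with only the days compared and FLM, in 513 with only the groups compared, and in 184 to 333 with 1 library left out. The share with a positive difference was then 50.3% and 53.6%, against 66.2%. The interaction of 14 and 21 dpi was called in 261, and in 109 to 280 with 1 library left out. Its share with a positive difference was 77.8%, and 90.2% with library totals. The cause was not tested.

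Deviations of same-numbered libraries from their group means had r = -0.06 and -0.15 over 12515 gene models, which are not independent. With 2 ExM libraries the ExM deviations mirror each other, so these values cannot show whether libraries were paired. The main fit took no pairs. With the replicate block over all samples 854 gene models were called, and 823 in a fit of only the groups compared, where 8 in place of 42 were called the same way at 7 dpi. With 2 ExM libraries, the spread was borrowed from all groups, and low counts limit what can be called.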

Other observations

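Lipid genes held 7 rises and 1 fall among 67 tested gene models, with a median of 0.11, beside 3.02% and 2.59% of all tested. Among the 55 annotated from sources not chosen on these libraries 4 rose and 0 fell, with a median of 0.08. ERG5 (187166), a desaturase of ergosterol synthesis, had 93.2, 98.7 and 77.4 CPM in EcM and 25.2 and 28.7 CPM in ExM, a log2 fold change of 1.74 ± 0.17 (adjusted p = 1.7e-08 by edgeR). Outside that list, the oxidoreductase 704679, annotated with C-4 sterol decarboxylase activity, had 363, 361 and 274 CPM in EcM and 116 and 119 CPM in ExM, a log2 fold change of 1.5 ± 0.25 (adjusted p = 6.2e-05). No library overlapped in either. At 21 dpi the log2 fold changes were 1.15 and 0.25.

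In the list of pheromones and pheromone receptors, 2 of 15 tested gene models were lower in EcM, beside 2.59% of all tested. The pheromone Lbphb (313028) had 11.1, 6.37 and 7.02 CPM in EcM and 19.3 and 25.4 CPM in ExM (log2 fold change -1.43 ± 0.53, adjusted p = 0.0496), and the pheromone receptor Lbrcb3 (192000) had 73.7, 58 and 67.2 CPM in EcM and 133 and 135 CPM in ExM (log2 fold change -1.02 ± 0.35, adjusted p = 0.036). Both were lower in each EcM library than in each ExM library, but both calls lay close to the threshold. With 1 library left out, the call of Lbphb was lost without EcM replicate 2 or 3 or either ExM library, with an adjusted p of up to 0.26, and that of Lbrcb3 without any of the 5 libraries, with an adjusted p of up to 0.15. By DESeq2, Lbphb had an adjusted p of 0.070 and Lbrcb3 a log2 fold change of -0.999. Both calls were also lost with DESeq2 size factors in edgeR and with a replicate block over all samples, that of Lbphb without the filter on low counts and that of Lbrcb3 in a fit of only the groups compared.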
